A study of Arabidopsis thaliana with 9 samples.

Results

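MADS-box genes of Arabidopsis thaliana were followed through RNA sequencing libraries of whole 7-day-old seedlings. A gene counted as a member when the deposited annotation listed SRF-TF, the domain of the MADS-box family, in any of its columns. This gave 91 of 29071 genes, all through the column of transcription factor families. Of these, 48 were listed in the doxycycline table, 90 in the ethidium bromide table and 47 in both. All seedlings were wild type Col-0, grown on Murashige and Skoog medium. The groups were doxycycline (Dox), which stops protein synthesis in mitochondria and plastids, ethidium bromide (EtBr, titled EB), a dye that intercalates into DNA, and water, with 3 libraries each. By its title, the series looked for genes of the unfolded protein response of mitochondria. Dose and length of treatment are not stated in the labels. The labels do not say whether the 3 libraries of a group are from different cultures. The p-values cover the spread between these libraries alone, which may be technical.

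MADS-box proteins bind DNA as dimers or larger complexes through a conserved N-terminal domain, at CArG boxes. The MIKC genes, with many exons and a keratin-like domain that brings partners together, time flowering, set the identity of floral organs and shape roots. The MIKC* subgroup acts mainly in pollen. The type I genes, most of them short and without introns, are known from the female gametophyte, the endosperm and the early embryo, and are hardly transcribed in seedlings.

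The annotation held to this family but not to all of it. Another 13 genes were listed as K-box, the second domain of MIKC proteins, and 12 of them are known MADS-box genes, among them SOC1, FLM, AP1, CAL and AG. The rule left these out. SEP1, SEP2 and SEP3 stood in the tables under names that a spreadsheet had turned into dates and were found by gene identifier. The members were grouped by known role into 8 floral repressors, 4 flowering promoters, 9 floral organ identity genes, 5 root and leaf MIKC genes, 6 MIKC* genes, 7 type I genes with a known function and 52 other members. Genes of the MIKC lists, MIKC* included, had 5 to 11 exons with a median of 7. The other 59 had a median of 1 exon, and 45 of them had a single exon. Chromosome 5 carried 40 of the 91 members (44.0%), against 22.7% of all listed genes.

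The promoters of 4 members are shown, the pair with the smallest adjusted p among the genes that were higher in EtBr and the pair with the smallest among those that were lower. Other members had larger log2 changes. They are read from the TAIR10.1 assembly of RefSeq, 5′ to 3′ on the strand of the gene, over 300 bases from 250 before the annotated gene start. The windows are chr1:17785147-17785446 (+ strand) for AT1G48150, chr1:5928784-5929083 (- strand) for AT1G17310, chr2:9579397-9579696 (+ strand) for SVP and chr2:1128979-1129278 (+ strand) for SEP4. Capitals mark TATAAA on either strand, the core of a TATA box.
AT1G48150: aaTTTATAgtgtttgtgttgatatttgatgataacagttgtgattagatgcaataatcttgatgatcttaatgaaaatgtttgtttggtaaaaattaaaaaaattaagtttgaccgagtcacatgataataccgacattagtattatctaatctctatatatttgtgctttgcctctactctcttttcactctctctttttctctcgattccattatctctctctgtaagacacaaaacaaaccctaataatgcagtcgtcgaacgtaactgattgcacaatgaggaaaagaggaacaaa
AT1G17310: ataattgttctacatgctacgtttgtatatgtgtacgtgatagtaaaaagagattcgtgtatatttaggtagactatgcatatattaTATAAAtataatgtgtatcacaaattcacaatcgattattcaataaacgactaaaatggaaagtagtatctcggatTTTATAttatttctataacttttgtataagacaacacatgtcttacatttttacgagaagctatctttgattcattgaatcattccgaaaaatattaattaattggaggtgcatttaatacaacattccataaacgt
SVP: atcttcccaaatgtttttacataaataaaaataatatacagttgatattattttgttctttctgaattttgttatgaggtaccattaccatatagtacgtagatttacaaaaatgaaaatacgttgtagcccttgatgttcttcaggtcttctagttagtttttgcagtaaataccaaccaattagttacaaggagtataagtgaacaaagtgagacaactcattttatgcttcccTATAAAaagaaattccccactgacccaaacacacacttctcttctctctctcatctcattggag
SEP4: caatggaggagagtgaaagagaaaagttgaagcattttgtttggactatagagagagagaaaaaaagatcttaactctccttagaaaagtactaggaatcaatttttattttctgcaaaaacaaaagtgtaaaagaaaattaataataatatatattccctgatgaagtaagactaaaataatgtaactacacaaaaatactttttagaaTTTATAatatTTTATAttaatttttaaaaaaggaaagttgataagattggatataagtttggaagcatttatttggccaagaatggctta
Both pairs held the element: AT1G48150 and SVP at 1 place, AT1G17310 and SEP4 at 2 places each. Over all members TATAAA was found in 62.6% of promoters, against 51.5% of 28877 promoters of listed genes. The CArG box, the motif that MADS-box proteins bind, was found in 5 of 91 member promoters (5.49%), against 2.98% of all promoters. The mitochondrial dysfunction motif, which binds the NAC factors of mitochondrial retrograde signalling, was found in 0 member promoters and in 1.44% of all promoters. The G-box CACGTG was found in 3.30% of member promoters and in 7.6% of all promoters. The window of AGL99, another gene that was higher in EtBr, held none of these motifs. Motifs were searched on both strands, a CArG box can hold TATAAA within it, and a match describes the letters alone.

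Libraries held 17724030 to 20330871 reads in listed genes. Member genes took 247 to 297 RPM (of the reads in listed genes) in Dox, 458 to 489 in EtBr and 254 to 346 in water. A read was found for 37 to 39 members per Dox library in its table, for 84 to 87 per EtBr library and for 32 to 39 per water library. Members without any read in water gave 2253 to 2623 reads in each EtBr library, and 2 to 8 reads in each Dox library. The Dox reads are those of the 3 such members listed for Dox, and each of the other 40 may have had up to 1 read there that the table leaves out. EtBr libraries stood above both other groups without overlap in total member reads, while Dox and water libraries overlapped. The EtBr totals include the members without a water read, most of them listed through their EtBr reads alone. Without these members EtBr replicate 1 lay below water replicate 2 in RPM, so the EtBr and water groups overlapped. Leaf markers (RBCS1A, CAB1, LHCB2.1, RCA) were abundant in all libraries. Each leaf and root marker had reads in every group, with the root marker EXPA7 at 0 in Dox replicate 3 alone. EtBr replicate 3 stood apart from the other EtBr libraries, with a chi-square per degree of freedom of 62.7 and 54.6 over all genes against them, while these differed by 8.64. Its summed leaf markers were lowest, at 334550, against 510530 and 567380 in EtBr replicates 1 and 2. Without it 52 members rose and 5 fell in EtBr against water, in place of 54 and 7, and 19 rose and 6 fell in EtBr against Dox, in place of 19 and 5. Water replicates 1 and 2 differed by 49.4 on the same measure.

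**Figure D1:**
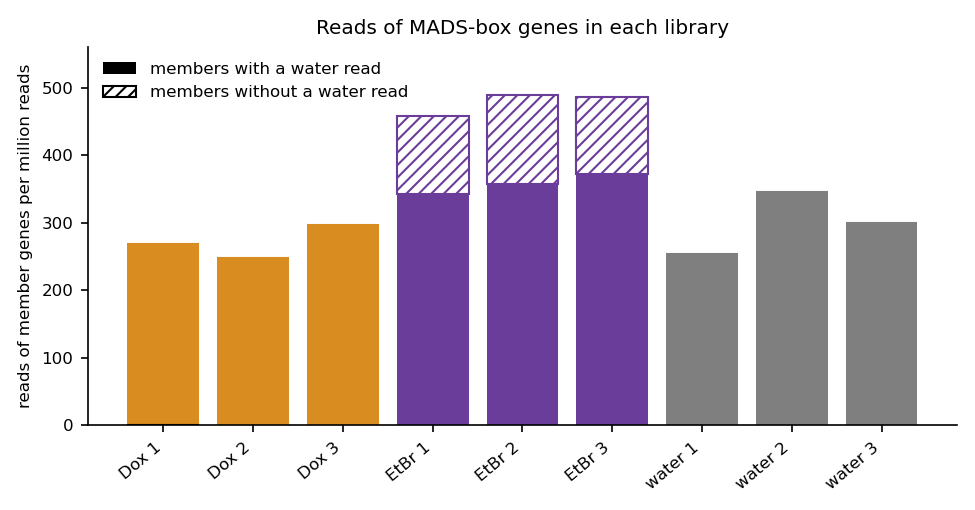
Reads of MADS-box genes in RPM (vertical axis) in each Dox, EtBr and water library, with filled parts for members that had a read in water and hatched parts for members that had none. The EtBr libraries sit between 458 and 489, the Dox libraries between 247 and 297 and the water libraries between 254 and 346.

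Levels below are deposited normalized counts, read counts divided by a size factor of the library. Each treatment has its own table with its own scaling, so water values differ slightly between the tables. In water, a mean of at least 1000 was reached by 3 members, of at least 100 by 10 and of at least 10 by 22 of the 90 members of the EtBr table. Per kilobase of gene model, the scale for comparing genes, the order in water began with SVP (718), MAF2 (403), AGL16 (399), MAF3 (359), SEP3 (133) and SEP4 (131). All of these are MIKC genes of flowering time, leaf or flower. Among the next members were AGL18 (126), the pollen-type gene AGL30 (118) and AGL15 (114), which lie close to SEP3 and SEP4. In EtBr the first of these, SVP, stood at 214 per kilobase and ranked 10 of 90, SEP4 stood at 12.5 and ranked 59, and AGL18 stood at 534 and ranked 3.

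Few MADS-box genes passed the test in Dox, AGL16 as lower and AGL39 as higher. Of the 48 members listed, 1 passed the test as higher and 1 as lower (limma with Benjamini-Hochberg adjustment over all genes), which is 2.08% in each direction. Among all 24434 genes tested, 6.47% were higher and 5.27% lower. The median log2 change was -0.01 for the members and -0.01 for all genes, and 0 for both when genes at 0 reads in a group were set to their bound. Log2 changes here and below are on the log2(value + 1) scale, which understates the change of low genes, and are given ± SE.

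AGL16 (AT3G57230, chromosome 3, 21177282 to 21181026), a MIKC gene of the stomatal lineage and target of a microRNA, was the gene that fell. It stood at 761, 706 and 845 in the Dox libraries, against 1007, 1045 and 1088 in water. All 3 Dox libraries lay below all 3 water libraries, with a log2 change of -0.44 ± 0.11 (adjusted p = 0.0279, limma). The call was lost when any of the 6 libraries was left out (adjusted p = 0.0561 to 0.127, limma). Calls over all genes dropped as well in these fits, from 1581 higher and 1287 lower to 520 to 1168 higher and 248 to 812 lower. AGL39 (AT5G27130, chromosome 5, 9546547 to 9547553), a gene outside the role lists, was the gene that rose. It stood at 3.96, 23.4 and 24.9 in the Dox libraries, against 4.02, 0 and 0 in water. Its lowest Dox library lay within the water range, and its 4 water reads were all in water replicate 1. The log2 change was 3.10 ± 0.84 (adjusted p = 0.0399, limma), and this call too was lost without any 1 of the 6 libraries (adjusted p = 0.051 to 0.24, limma). It was 3.88 without Dox replicate 1 and 3.87 without water replicate 1, the gene then having no water read.

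No member of the repressor, promoter, organ identity, MIKC* or type I lists passed in Dox by limma. Over all members, 3 had an unadjusted p under 0.05 as higher and 1 as lower, and DESeq2 called 1 in each direction. With edgeR, 0 were called higher and 1 lower of the 23 members tested, which did not include AGL39. SVP, a central repressor of flowering that acts with FLC, stood at 1169, 1177 and 1069 in the Dox libraries, against 1127, 1327 and 1219 in water. FLC, the repressor that cold silences, stood at 21.8, 34.2 and 39.9 in the Dox libraries, against 25.2, 16.3 and 19.9 in water. MAF2, the FLC relative with the highest level, stood at 1229.6, 875 and 1445 in the Dox libraries, against 938, 1667 and 1286 in water. The Dox and water ranges of these 3 genes overlapped. MAF4, also of the FLC clade, stood at 52.5, 53.7 and 50.8 in the Dox libraries, against 61.4, 95.2 and 82.9 in water, without overlap, but its log2 change of -0.58 ± 0.27 (adjusted p = 0.215, limma) did not pass. SEP3, a cofactor of all floral organ identity proteins, stood at 181, 214 and 199 in the Dox libraries, against 177, 171 and 134 in water, also without overlap, with a log2 change of 0.31 ± 0.18 (adjusted p = 0.334, limma). For AGL14, a regulator of auxin transport in roots, and for AGL62, which delays cellularization of the endosperm, the Dox and water libraries were apart as well, and neither passed (adjusted p = 0.247 and 0.257, limma). Over the 48 members, all Dox libraries lay above all water libraries in 4, AGL102 (adjusted p = 0.107, limma) among them, and below in 3. With 3 libraries in each group such a gap can arise by chance. In Dox, 3 members that had no water read were listed, AT5G49420 with 8 reads over the 3 libraries, AGL52 with 3 and AGL105 with 2. None of these passed.

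**Figure D2:**
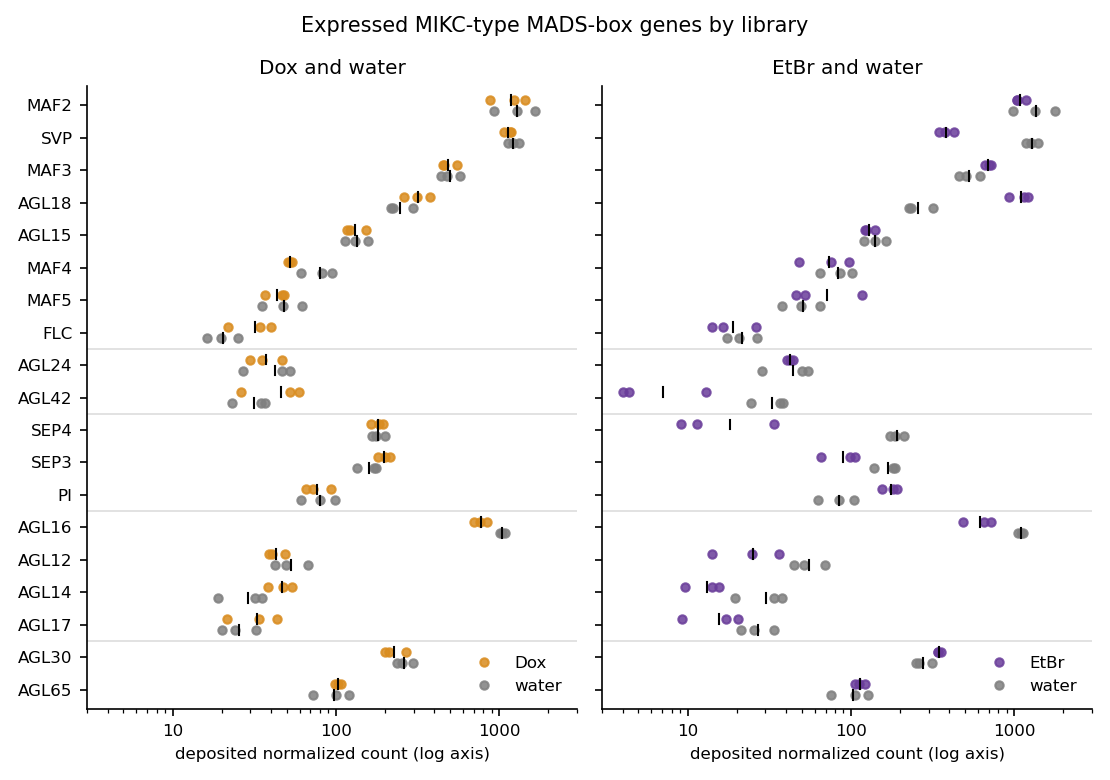
Deposited normalized counts (horizontal log axes) of the 19 MIKC genes with a mean of at least 10 in water, for Dox and water at left and EtBr and water at right, with 1 point per library and a black tick at each group mean. In EtBr, SVP, SEP4, AGL42 and AGL16 lie below the water points and AGL18 and PI above them.

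Members of every role list changed in EtBr. Called MIKC genes were found in both directions, and the called genes outside the MIKC lists were all higher. Of the 90 members listed, 54 rose and 7 fell (60.0% and 7.78%), against 34.2% higher and 21.2% lower among all 28956 genes. The counts of each role list below are to be read beside these shares of all genes. The median log2 change was 2.48 for the members and 0.39 for all genes, or 2.23 and 0.27 with genes at 0 reads in a group set to their bound. Many members are listed for EtBr because they had reads there, so genes with and without a water read are kept apart. Among the 47 members with a water read, 19 rose and 7 fell (40.4% and 14.9%), against 30.5% and 25.3% of all 24198 such genes. Their median log2 change was 0.41, against 0.09 for all such genes. Within these 47, the 27 MIKC genes divided into 9 higher, 7 lower and 11 that did not pass, and the 20 others into 10 higher, 0 lower and 10 that did not pass. A lower level in whole seedlings may reflect fewer cells of a type or less RNA per cell, which cannot be told apart here.

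Marker genes of tissues that a seedling lacks moved with these results. The summed level of the 4 pollen markers (VGD1, AGP6, AGP11, MGH3) was 100 to 140 in EtBr, against 7.63 to 16.3 in water, and 3 of the 4 rose. The summed level of the 5 seed markers (CRA1, CRU3, OLEO1, SESA3, FWA) was 101 to 149 in EtBr, against 3.17 to 10.2 in water, and 5 of 5 rose. In water 2 markers of each list were at 0. Of all genes 34.2% rose, and of all genes listed without a water read 53.3%, so a rise from 0 water reads was common in EtBr. The summed root markers (EXPA7, SHR, SCR, GL2, WOX5) were 687 to 837 in EtBr, against 907 to 1229 in water, with 1 higher and 2 lower of 5. The summed leaf markers were 334550 to 567380 in EtBr, against 563700 to 614740 in water, with 1 of 4 higher. The part of these shifts in the MADS-box results was not tested.

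Among the 8 floral repressors, 2 rose, 1 fell and 5 did not pass in EtBr. SVP (AT2G22540, chromosome 2, 9579647 to 9583901) stood at 379, 346 and 427 in the EtBr libraries, against 1185, 1408 and 1266 in water. All EtBr libraries lay far below all water libraries, a log2 change of -1.74 ± 0.14 (adjusted p = 3.39e-05, limma). AGL18 (AT3G57390, chromosome 3, 21233472 to 21235978), which with AGL15 represses flowering and is expressed in embryos, moved the other way. It stood at 931, 1149.7 and 1217 in the EtBr libraries, against 235, 317 and 227 in water, a log2 change of 2.08 ± 0.18 (adjusted p = 4.79e-05, limma), again without overlap. MAF3, of the FLC clade, stood at 721, 668 and 699 in the EtBr libraries, against 505, 614 and 459 in water. Its change of 0.41 ± 0.15 (adjusted p = 0.0411, limma) was small, and it did not pass with edgeR, with DESeq2 or when any library but water replicate 2 was left out (adjusted p over the leave-outs = 0.0155 to 0.137, limma).

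The other FLC-clade genes did not pass. FLC stood at 14.1, 16.6 and 26.2 in the EtBr libraries, against 26.5, 17.3 and 20.7 in water, with overlapping groups and the lowest values in EtBr replicates 1 and 2 (log2 change -0.20 ± 0.40). MAF2 (AT5G65050, chromosome 5, 25982254 to 25986435) stood at 1048, 1036 and 1179 in the EtBr libraries, against 986, 1769.5 and 1336 in water, and MAF4 at 97.6, 47.8 and 75.5 in the EtBr libraries, against 64.6, 101 and 86.1 in water. MAF5 stood at 117, 52.4 and 46.3 in the EtBr libraries, against 49.7, 37.8 and 64.3 in water, where EtBr replicate 1 was high and the others lay among the water values. AGL15, the partner of AGL18, stood at 121, 123 and 141 in the EtBr libraries, against 119.6, 139.8 and 163 in water, with overlapping groups and a log2 change of -0.12 ± 0.20. MAF2 and MAF3 are 91.6% identical over 310 bases, so their reads may be partly shared. FLC overlaps a gene on the opposite strand, AT5G01675, along its length, and the sources used here do not say whether strand was kept.

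Of the 4 flowering promoters, 1 rose, 1 fell and 2 did not pass. AGL42 (AT5G62165, chromosome 5, 24964646 to 24968607), a relative of SOC1 that promotes flowering at the shoot apex, stood at 4.40, 12.9 and 4.03 in the EtBr libraries, against 24.3, 36.7 and 38.1 in water. The groups did not overlap, and the log2 change was -2.21 ± 0.51 (adjusted p = 0.0062, limma). AGL71, a close relative of AGL42, stood at 14.1, 21.2 and 16.1 in the EtBr libraries, against 0, 3.06 and 0 in water, with 55 EtBr reads against 3 water reads, a ratio of 16.2 (95% interval 5.26 to 81.0). Without water replicate 2, which held its water reads, the log2 change was 4.16 in place of 3.49. AGL24, which promotes flowering with SOC1, stood at 42.2, 40.5 and 44.3 in the EtBr libraries, against 28.6, 50.0 and 54.5 in water and did not pass (log2 change -0.01 ± 0.33). AGL72, the fourth of these genes, had 8 EtBr reads and 0 water reads and did not pass.

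Of the 8 floral organ identity genes listed for EtBr, 4 rose, 2 fell and 2 did not pass. SEP4 (AT2G03710, chromosome 2, 1129229 to 1131838), the SEPALLATA gene that is also active in leaves, stood at 11.4, 34.0 and 9.07 in the EtBr libraries, against 186, 212 and 173 in water. It had the largest fall of the members, a log2 change of -3.54 ± 0.46 (adjusted p = 0.000343, limma), and its highest EtBr library lay far under its lowest water library. SEP3 (AT1G24260, chromosome 1, 8593536 to 8596123) stood at 106, 98.4 and 65.5 in the EtBr libraries, against 186, 182 and 139 in water, a log2 change of -0.92 ± 0.25 (adjusted p = 0.0145, limma). Without water replicate 1 SEP3 did not pass (limma adjusted p = 0.0515; 0.0215 to 0.0515 over the 6 leave-outs).

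SEP2 (AT3G02310, chromosome 3, 464279 to 467151), redundant with SEP1 and SEP3 in flowers, went the other way, with 48.4, 49.7 and 17.1 in the EtBr libraries and 0 reads in water. That was at least 37.1-fold higher in EtBr, taking 3 reads over the 3 water libraries as the floor. SEP1 stood at 7.91, 17.5 and 8.06 in the EtBr libraries, against 2.12, 13.3 and 1.09 in water, with overlapping groups, and did not pass. PI (AT5G20240, chromosome 5, 6828904 to 6831515), the B-class gene of petals and stamens, stood at 180.3, 191 and 156 in the EtBr libraries, against 105, 84.7 and 63.2 in water, a log2 change of 1.08 ± 0.24 (adjusted p = 0.00549, limma) without overlap. Its partner AP3 stood at 1.76, 6.44 and 10.1 in the EtBr libraries, against 0, 0 and 8.72 in water, with overlapping groups, and did not pass (log2 change 1.52 ± 0.97). The B-sister gene TT16, which is needed in the seed coat for proanthocyanidins, had 66 EtBr reads against 1 water read, a ratio of 58.3 (95% interval 10.1 to 2338), and passed (adjusted p = 0.00022, limma). AGL63, its close relative, stood at 2.64, 21.2 and 8.06 in the EtBr libraries, against 0, 0 and 2.18 in water. It passed (adjusted p = 0.0205, limma) but not without EtBr replicate 2 or 3 or water replicate 1 or 2 (adjusted p over the leave-outs = 0.0201 to 0.0938, limma), and its log2 change of 2.61 was 3.27 without EtBr replicate 1 and 1.97 without EtBr replicate 2. AGL79 was not listed for EtBr.

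Among the 5 root and leaf MIKC genes, 1 rose, 3 fell and 1 did not pass. AGL16 stood at 487, 653 and 722 in the EtBr libraries, against 1059, 1109 and 1130 in water, with every EtBr library below every water library and a log2 change of -0.84 ± 0.16 (adjusted p = 0.00271, limma). AGL12 (AT1G71692, chromosome 1, 26952545 to 26955127), which promotes cell proliferation in the root meristem, stood at 36.1, 24.8 and 14.1 in the EtBr libraries, against 51.9, 44.9 and 69.7 in water, a log2 change of -1.19 ± 0.41 (adjusted p = 0.0356, limma). AGL14 stood at 9.67, 15.6 and 14.1 in the EtBr libraries, against 33.9, 37.8 and 19.6 in water, a log2 change of -1.13 ± 0.41 (adjusted p = 0.0469, limma). Both were near the threshold: AGL12 passed only when EtBr replicate 1 was left out and AGL14 only when water replicate 3 was (adjusted p over the leave-outs = 0.0362 to 0.121 and 0.031 to 0.132, limma), and both missed it under total-read scaling. AGL17, of the same clade as AGL16, stood at 20.2, 9.20 and 17.1 in the EtBr libraries, against 21.2, 25.5 and 33.8 in water, without overlap, but did not pass (log2 change -0.79 ± 0.43, adjusted p = 0.146, limma). ANR1, which links nitrate to lateral root growth, stood at 20.2, 18.4 and 15.1 in the EtBr libraries, against 0, 4.08 and 5.45 in water and rose, a log2 change of 2.55 ± 0.72 (adjusted p = 0.016, limma). The log2 change was 1.72 without water replicate 1, and the call was lost without any 1 of the EtBr libraries (adjusted p over the leave-outs = 0.0162 to 0.0968, limma).

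Of the 6 MIKC* genes, 3 rose (50%, against 34.2% of all genes) and 3 did not pass. As 2 of the 6 had no water read, these could not fall. AGL30 and AGL65, which had reads in every library, stood at 359, 344 and 341 in the EtBr libraries, against 249.8, 315 and 263 in water, for AGL30, and at 121, 107 and 113 in the EtBr libraries, against 106, 128 and 75.2 in water, for AGL65. Neither passed (log2 change 0.34 ± 0.15 and 0.17 ± 0.25). AGL66, which acts with AGL104 in pollen maturation and tube growth, had 28 EtBr reads and 0 water reads, at least 8.25-fold higher. AGL104 itself had 10 EtBr reads, most of them in EtBr replicate 3, and did not pass. AGL94 stood at 28.1, 15.6 and 51.4 in the EtBr libraries, against 13.8, 5.10 and 3.27 in water and passed (adjusted p = 0.0231, limma), but not without EtBr replicate 1 or 3 or water replicate 2 or 3 (adjusted p over the leave-outs = 0.0128 to 0.11, limma). AGL67, known from the maturing seed, had 24 EtBr reads against 2 water reads, a ratio of 10.6 (95% interval 2.63 to 92.6), and overlaps a gene of the opposite strand. It did not pass with DESeq2. Of the 4 pollen markers given above, 3 rose in the same libraries, and a link to the MIKC* genes was not tested.

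Of the 7 type I genes with a known function, 5 rose (71.4%, against 34.2% of all genes) and 2 did not pass, all at low levels. As 4 of the 7 had no water read, these could not fall. Of all genes listed without a water read 53.3% rose. PHE1, a maternally silenced gene of the endosperm, had 15 EtBr reads and 0 water reads. Its nearby copy PHE2 had 38 and 0, at least 11.2-fold higher. AGL28, which can promote flowering when overexpressed, stood at 20.2, 24.8 and 11.1 in the EtBr libraries with 0 water reads, at least 18.0-fold higher. AGL23, needed in the female gametophyte, had 9 EtBr reads and 0 in water. With DESeq2, PHE1 and AGL23 did not pass (adjusted p = 0.0522 and 0.176). AGL61, the partner of AGL80 in the central cell, had 15 EtBr reads against 1 in water, with overlapping libraries. It did not pass with DESeq2, nor without EtBr replicate 1 or 2 or water replicate 1 or 2 (adjusted p over the leave-outs = 0.00902 to 0.14, limma), and its log2 change of 1.89 was 2.50 without EtBr replicate 3.

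Within the list of 7 type I genes with a known function, only AGL62 and AGL80 had reads in every water library. AGL62 stood at 21.1, 11.0 and 10.1 in the EtBr libraries, against 43.4, 26.5 and 24.0 in water, every EtBr library being below every water library, and AGL80 at 21.1, 55.2 and 44.3 in the EtBr libraries, against 13.8, 17.3 and 20.7 in water, every EtBr library being above. Neither passed (adjusted p = 0.0582 and 0.0654, limma). The 5 seed markers given above rose in the same libraries, and a link to the type I genes was not tested.

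Of the 52 members outside the role lists, 38 rose (73.1%, against 34.2% of all genes), 0 fell and 14 did not pass in EtBr. As 35 of the 52 had no water read and could not fall, the 0 was largely fixed by the low water levels. Of all genes listed without a water read 53.3% rose. AGL39, the highest of them in EtBr, stood at 501, 493 and 914 in the EtBr libraries, against 4.23, 0 and 0 in water, a log2 change of 8.46 ± 0.66 (adjusted p = 3.13e-05, limma), or 9.25 without water replicate 1. AT1G17310 (AT1G17310, chromosome 1, 5927925 to 5928833), which encodes a MADS-box protein of no known function, was read in all 9 libraries. It stood at 417, 476 and 598 in the EtBr libraries, against 5.29, 4.08 and 5.45 in water, and at 13.9, 4.88 and 29.9 in the Dox libraries. The EtBr libraries lay far above the rest, with a log2 change against water of 6.38 ± 0.28 (adjusted p = 3.77e-06, limma).

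AGL55 stood at 44.0, 223 and 98.7 in the EtBr libraries, against 1.06, 6.12 and 2.18 in water, with a wide spread between EtBr libraries and a log2 change of 4.80 ± 0.69 (adjusted p = 0.00055, limma). AGL96 stood at 23.7, 27.6 and 28.2 in the EtBr libraries, against 4.23, 0 and 1.09 in water, a log2 change of 3.63 ± 0.63 (adjusted p = 0.00153, limma), or 4.25 without water replicate 1. AGL50 had 199 EtBr reads against 2 water reads, a ratio of 87.9 (95% interval 24.0 to 731). AGL93 had 104 against 1, a ratio of 91.9 (95% interval 16.1 to 3664). AGL78 had 57 against 2 and AT5G55690 had 48 against 2, ratios of 25.2 (95% interval 6.66 to 213) and 21.2 (95% interval 5.56 to 180.1). All 6 passed, and in each every EtBr library lay above every water library.

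The remaining 43 members had no read in any water library, 35 of them outside the role lists. They were listed through EtBr reads, so their number that rose, 35 of 43 (81.4%, against 53.3% of all 4758 genes listed without a water read), follows in part from how the table was made and is given as a description. Their EtBr reads over 3 libraries had a median of 40, and 36 (83.7%) had a read in every EtBr library. Over all 4758 such genes the median was 14 and the share 54.3%. At least 100 EtBr reads were found for 16 members (37.2%), against 10.4% of all such genes. With a limit of at most 3 water reads in place of 0, 57 members would fall in this class.

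AGL99 (AT5G04640, chromosome 5, 1332759 to 1333922) had the most reads of the class, with 313, 532 and 316 normalized counts in the EtBr libraries, at least 368-fold above water. AT1G48150 (AT1G48150, chromosome 1, 17785397 to 17786368) stood at 317, 299 and 386, at least 314-fold higher. AGL75 stood at 207, 308 and 195, at least 225-fold higher. Per kilobase in EtBr, AGL99 averaged 332 and AT1G48150 343, ranks 6 and 5 of the 90 members. AT5G49420 stood at 144, 163 and 175, AGL83 at 139.8, 104 and 131 and AGL53 at 108, 97.5 and 170.2. AGL52 stood at 103, 103 and 128 and AGL77 at 111, 98.4 and 115. For these 5 the EtBr level was at least 152, 118, 117, 105 and 102-fold higher, in this order. With 1 water library left out the floor rests on fewer reads and each bound is lower, 241-fold for AGL99 and 67.0-fold for AGL77.

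**Figure D3:**
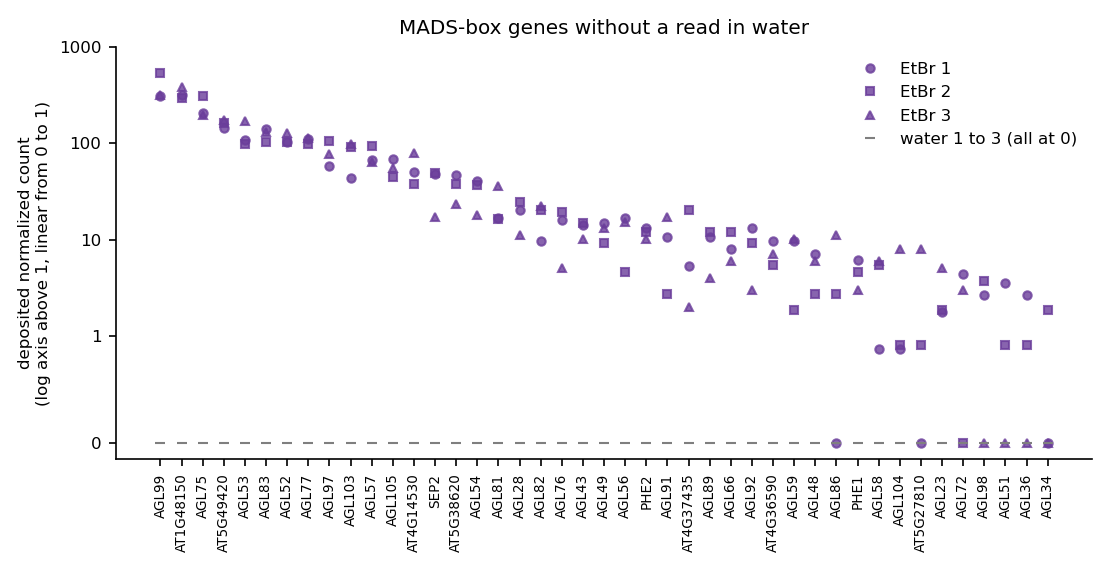
Deposited normalized counts (vertical axis, log above 1 and linear below) of the 43 MADS-box genes without a read in water, in each of the 3 EtBr libraries, with the water libraries at 0. The genes run from AGL99 at 313 to 532 down to AGL34 with 2 reads in EtBr replicate 2.

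At the low end of the class, 8 of the 43 did not pass. AGL34 had 2 EtBr reads, at or under the floor. AGL36, a gene imprinted in the endosperm, had 4 and AGL51 had 5. AGL86 and AT5G27810 had 14 and 9 EtBr reads, most of them in EtBr replicate 3. These last 4 genes were chosen after their values were seen. Exon numbers were set against the calls for all members outside the MIKC lists, with or without a water read. Of those with a single exon 34 rose and 11 did not pass, and of those with 2 exons 8 rose and 4 did not pass. Of all genes 34.2% rose.

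Members lay together in places on chromosome 5, where copies of type I genes stand in rows, and only this chromosome was searched for such stretches. The numbers that rose there stand beside 54 of 90 members (60.0%) over all chromosomes. A stretch from 9343785 to 9856458 held 11 members, of which 5 rose in EtBr, among them AGL39, AGL53 and AGL54. A second from 15906875 to 16079364 held 4, of which AGL81, AGL76 and AGL43 rose. The row of MAF2, MAF3, MAF4 and MAF5 with AGL78 lay from 25982254 to 26111403, and 2 of these 5 rose. Of the 54 members that rose, 57.4% had a nearest listed neighbour on either side that also rose, against 61.6% of all 9906 genes that rose. Both nearest neighbours rose for 20.4% of these members, against 16.0% of all genes that rose. Among members that rose without a water read, 65.7% had a neighbour that rose, against 62.9% of all such genes. The shares thus lay on either side of those of all genes, and their differences were not tested. Close copies may share reads: AGL81 and AGL98 are 97.5% identical over 630 bases, AGL50 and AGL49 97.1% over 855 bases, and AGL93 and AGL53 96.3% over 873 bases. The sources used here do not give how reads matching several copies were counted, and the split within such pairs is uncertain. Of all members, 6 overlap another listed gene.

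EtBr was also set against Dox directly, on reads scaled over all 9 libraries, for the 47 members listed in both tables. Here 19 rose and 5 fell (40.4% and 10.6%), against 32.4% and 24.8% of 24319 genes. The median log2 change was 0.56 for the members and 0.14 for all genes. That of all genes was 0.04 with TMM scaling and 0.27 with total-read scaling, a shift against which small changes are to be read. The EtBr libraries are those of the comparison with water, so these 2 comparisons are not independent.

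SVP, on the 9-library scale, stood at 375, 342 and 422 in the EtBr libraries, against 1209, 1222 and 1093 in the Dox libraries, a log2 change of -1.63 ± 0.11 (adjusted p = 8.33e-05, limma). SEP4 stood at 11.3, 33.6 and 8.95 in the EtBr libraries, against 169, 202 and 189 in the Dox libraries, with a log2 change of -3.53 ± 0.48 (adjusted p = 0.00105, limma). For SEP3 the change was -1.22 ± 0.22 (adjusted p = 0.00364, limma), for AGL42 -2.69 ± 0.53 (adjusted p = 0.00505, limma) and for AGL14 -1.83 ± 0.31 (adjusted p = 0.00259, limma). These 5 fell, and in each all EtBr libraries lay below all Dox libraries. AGL16 stood at 482, 645 and 713 in the EtBr libraries, against 787, 732 and 864 in the Dox libraries and did not pass (log2 change -0.39 ± 0.16, adjusted p = 0.0776, limma), in a gene that had fallen in Dox as well.

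Among repressors AGL18 rose against Dox, with a log2 change of 1.73 ± 0.17 (adjusted p = 0.000254, limma), and MAF3 by 0.45 ± 0.10 (adjusted p = 0.00989, limma). PI rose by 1.13 ± 0.20 (adjusted p = 0.00323, limma). AGL30, the MIKC* gene with the highest level, stood at 355, 340 and 337 in the EtBr libraries, against 220, 209 and 275 in the Dox libraries and rose by 0.56 ± 0.14 (adjusted p = 0.0121, limma). FLC did not pass (-0.79 ± 0.37, adjusted p = 0.113, limma). Outside the role lists, 11 of 18 rose and 0 fell (61.1% and 0%, against 32.4% and 24.8% of all genes). Most of these 18 had few reads in the Dox libraries and could hardly fall, so the 0 was largely fixed by the low Dox levels. AGL52 rose by 5.92 ± 0.46, AT5G49420 by 5.53 ± 0.40 and AGL55 by 6.09 ± 0.72. AGL39 rose by 5.32 ± 0.67 and AT1G17310 by 5.09 ± 0.57, or by 4.54 for AGL39 without Dox replicate 1 and 4.47 for AT1G17310 without Dox replicate 2. AGL50 rose by 4.27 ± 0.75, with 3.43 without Dox replicate 2 and 4.94 without Dox replicate 3, and AT5G55690 by 2.72 ± 0.62, with 2.12 without Dox replicate 1. AGL63 rose by 3.16 ± 0.66, with 3.81 without EtBr replicate 1 and 2.51 without EtBr replicate 2. All 24 calls of this comparison held whichever of the 6 libraries was left out.

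**Figure D4:**
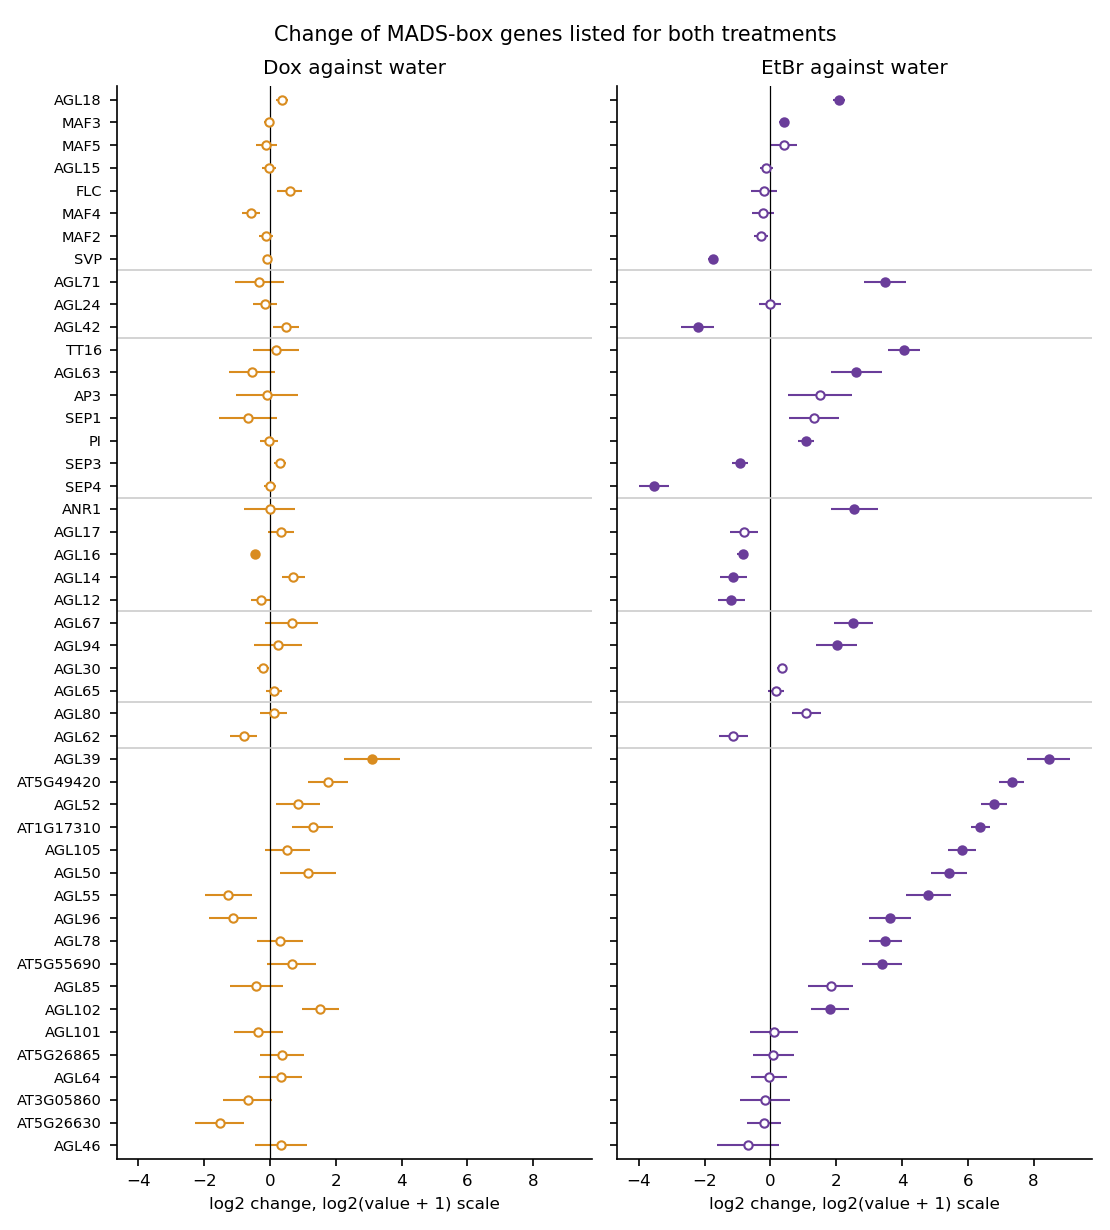
Log2 change (horizontal axis, log2(value + 1) scale, bars ± SE) of the 47 members listed for both treatments, for Dox against water at left and EtBr against water at right, grouped by role from floral repressors at the top to members outside the role lists at the bottom. Filled points passed the test (limma adjusted p under 0.05), and values of genes at 0 reads in a group depend on the added 1. At left AGL16 and AGL39 are filled. At right SVP and SEP4 lie at -1.74 and -3.54, and AGL39 at 8.46.

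Genes that act around the MADS-box factors in flowering, on lists of FLC regulators, Polycomb proteins, and integrators and partners, passed the test at shares near or below those of all genes. In Dox 4 of 50 were higher and 1 lower (8% and 2%, against 6.47% and 5.27% of all genes). In EtBr against water 14 of 49 were higher and 10 lower (28.6% and 20.4%, against 34.2% and 21.2%). In EtBr against Dox 14 of 49 were higher and 13 lower (28.6% and 26.5%, against 32.4% and 24.8%). TEM1, which represses FT, stood at 6888, 6924 and 7585 in the Dox libraries, against 4227, 3424 and 3563 in water, a log2 change of 0.94 ± 0.12 (adjusted p = 0.000728, limma), and AP2, a repressor of flowering and A-class gene, at 991, 867 and 1052 in the Dox libraries, against 616, 519 and 514 in water, a log2 change of 0.82 ± 0.13 (adjusted p = 0.00225, limma). The Polycomb gene MEA stood at 10.9, 7.81 and 33.9 in the Dox libraries, against 5.03, 0 and 1.05 in water (log2 change 2.74 ± 0.77 (adjusted p = 0.0448, limma)). No gene of the FLC regulators passed in Dox.

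In EtBr the FLC regulator VEL1, of the VIN3 family, stood at 719, 627 and 778 in the EtBr libraries, against 2493, 1664 and 2297 in water, a log2 change of -1.59 ± 0.18 (adjusted p = 0.000152, limma). VIN3, which silences FLC in cold, had 71 EtBr reads against 1 water read. TOE1, an AP2-like repressor of FT, stood at 374, 415 and 285 in the EtBr libraries, against 1242, 967 and 1179 in water (log2 change -1.67 ± 0.18), and SMZ, of the same family, at 66.0, 74.5 and 78.6 in the EtBr libraries, against 228, 194 and 211 in water (log2 change -1.52 ± 0.19). The Polycomb genes MSI1 and EMF1 rose by 0.87 ± 0.12 and 0.93 ± 0.14. Against Dox, TEM2 changed by -1.49 ± 0.10, TFL1 by 3.57 ± 0.35, ELF7 by 1.01 ± 0.09 and FIS2 by 3.50 ± 0.34, all past the threshold.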

How the data were processed

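RNA was measured in 9 libraries of whole seedlings, 3 each of Dox, EtBr and water, extracted with TRIzol and sequenced after a NEBNext Ultra RNA preparation, per the labels' protocols. The tools named, per the submitters' processing notes and without roles, were DESeq 1.18.0, HTSeq 0.6.1, TopHat2 2.0.12, Bowtie2 2.2.3 and CASAVA 1.8. A genome build is not given in these sources. Of 29071 gene identifiers 28255 matched RefSeq genes of TAIR10.1, with identical start and end for 99.9% of them.

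The authors deposited, per library, a signal value equal to the read count of a gene over a size factor. Whole reads could be recovered for 100% of values in the 12 library columns (tolerance 0.001 read), a weak test in the 4 columns with a size factor near 1. The deposited tables also give gene length and the authors' log2 fold changes and p-values, of which only the adjusted p-values were used, in an alternative. The lowest total of a listed gene was 2 reads in both tables, so a gene listed in 1 table only had at most 1 water read. Per-library depth limits precision as given with the values, and read ratios have exact binomial intervals at 95% that cover counting error only.

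Dox and EtBr were each compared with water by limma 3.58.1 in R 4.3.3, with a trend of the variance, on log2(value + 1) of every gene in the respective table. EtBr was tested against Dox on reads divided by size factors (median of ratios) over all 9 libraries. P-values were Benjamini-Hochberg adjusted over all genes at 0.05. The fits were tested on simulated data. Alternatives concerned a pseudocount of 0.1 or 5, a mean of at least 10, the scaling (TMM, total reads), the trend, the replicate block, the libraries and the tool (edgeR 4.0.16, DESeq2 1.42.0). The authors' adjusted p was added after seeing the data. Replicates differed by a chi-square per degree of freedom of 8.64 to 62.7, and none was treated as a duplicate.

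Members, lists and tests were chosen with earlier results of these data known. Named were the genes of the role lists, up to 30 called members by smallest adjusted p, the 5 highest in water, and the 8 with most reads per treatment among those without a water read. From each list of other flowering genes, the 2 with the lowest adjusted p in a comparison were named. A few further members were named after their values were seen.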

Additional observations from a re-analysis of the deposited data

How the results depend on the processing

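In EtBr against water, 54 members rose and 7 fell in the main analysis. With a mean of at least 10 required, 29 rose of 47 tested, and with edgeR 34 rose of 53 tested, since fewer members with low counts were tested. Leaving out 1 library gave 49 to 52 higher and 5 to 7 lower, the replicate block 53 and 5, DESeq2 47 and 6, and the authors' adjusted p 47 and 6. Of the 54 and 7, 46 and 4 were called in every leave-out. In EtBr against Dox, 19 rose and 5 fell, with 19 to 21 and 5 to 6 when 1 library was left out and 21 and 6 with the replicate block. In Dox against water 1 rose and 1 fell. No member rose (0) with a pseudocount of 0.1, the replicate block or without any 1 library. With a mean of at least 10 and with edgeR, 0 of the 23 members tested rose, and AGL39 was not among those tested. None fell (0) with the replicate block, without the trend or without any 1 library. The causes were not tested. No direction of a called value was reversed under these alternatives. Same-numbered libraries did not deviate together (correlations of -0.138 to 0.117), so the numbers were not taken as pairs. Members with a few reads per library, most of those outside the MIKC lists in water, cannot show a fall at this depth.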

Other observations

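The 12 MADS-box genes annotated as K-box, which the rule left out, are given here as values. In EtBr 5 were higher, 1 lower and 6 did not pass, and in Dox 0 of the 11 listed passed by limma. SOC1, the integrator that SVP and FLC repress, stood at 123, 110.4 and 102 in the EtBr libraries, against 232, 252 and 196 in water, a log2 change of -1.01 ± 0.19 (adjusted p = 0.00227, limma). FLM, a repressor that acts with SVP, stood at 970.0, 980.4 and 851 in the EtBr libraries, against 930.3, 1176 and 892 in water and did not pass (log2 change -0.09 ± 0.15). SHP1, a gene of carpels and fruits, stood at 62.4, 33.1 and 73.5 in the EtBr libraries, against 15.9, 11.2 and 15.3 in water, a log2 change of 1.86 ± 0.40 (adjusted p = 0.00462, limma). AGL6, active in flowers and seeds, stood at 37.8, 18.4 and 10.1 in the EtBr libraries, against 0, 8.16 and 1.09 in water (log2 change 2.92 ± 0.85 (adjusted p = 0.0187, limma)). CAL had 35 EtBr reads against 1 water read, and AP1 and AGL13 had 13 and 21 EtBr reads and 0 in water. The carpel gene AG stood at 0, 9.20 and 1.01 in the EtBr libraries, against 6.35, 3.06 and 6.54 in water, with overlapping groups. AGL21 stood at 52.8, 40.5 and 16.1 in the EtBr libraries, against 55.0, 73.5 and 76.3 in water, with every EtBr library lower. SHP2 had 3 EtBr reads against 9 water reads, FUL 20 against 18 and AGL19 52 against 21, each with overlapping groups. None of AG, AGL21, SHP2, FUL and AGL19 passed.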
